A study of Rattus norvegicus with 10 samples.

Results

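Adenosine is made from ATP and AMP outside and inside cells, acts on 4 G protein-coupled receptors, and is removed by uptake and by phosphorylation or deamination. The transcripts followed here are those of 10 genes of this pathway, and they were chosen by name: Nt5e, Adk, Ada, Ahcy, the receptors Adora1, Adora2a, Adora2b and Adora3, and the transporters Slc29a1 and Slc29a2. Each symbol was looked up among the 32041 transcript rows of one count matrix, and 9 of the 10 had a row, each of them exactly 1. No row was matched to Adora3, so no value is given for it.

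The samples were hippocampal tissue holding the CA3 field and the dentate gyrus from the left side of 10 adult male Sprague-Dawley rats whose age is not given, 5 sham and 5 stimulated, with 1 library per rat. All 10 carried an electrode in the left lateral amygdala, placed under isoflurane after butorphanol. The stimulated rats (rats 6 to 10) received current pulses of 400 µA at 60 Hz for 30 min, or 10 min longer where status epilepticus did not start, and were then given diazepam, 20 mg/kg at first. The sham rats (rats 1 to 5) received no current. Diazepam and 2 weeks of video EEG recording before the end are named for the stimulated rats alone. Current, status epilepticus, diazepam and recording thus cannot be told apart here. Tissue was taken 3 months after status epilepticus, when the stimulated rats, the only ones with recording named, had spontaneous seizures. Aligned counts ranged from 13552309 to 24086059 per library, and unaligned reads made up 32.0 to 45.1% of all. Of 8 dentate markers listed 6 had a row, and Prox1, with at least 334 counts, C1ql2, Calb1 and Trpc6 were counted in every rat, while Tdo2 was at 0 in 9 rats and Lct in 2. Of 8 CA3 markers 7 had a row, and all but Iyd, at 0 in 3 rats, were counted in every rat, Grik4 with at least 2100 counts. All 7 CA1 markers had a row, and Wfs1, Mpped1 and Fibcd1 had at least 333, 742 and 551 counts, so CA1 transcripts were also present. Relative to library size (CPM, defined below), the CA1 markers summed to 378.4 in stimulated rat 6 and 117.6 in stimulated rat 10. Sham rats ranged from 191.7 to 316.2, and rats 7 to 9 lay inside that range. How far the share of CA1 tissue entered other values was not tested. The labels name the tissue as dorsal hippocampus.

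Adenosine dampens excitatory transmission, mostly through the A1 receptor on neurons, and is regarded as an endogenous brake on seizures. Its level in the adult brain is set largely by adenosine kinase (Adk), which sits chiefly in astrocytes and turns adenosine into AMP. Ecto-5′-nucleotidase (Nt5e, also called CD73) makes adenosine from AMP at the cell surface, and the receptors of Adora2a and Adora2b stimulate adenylate cyclase where those of Adora1 and Adora3 inhibit it. Adenosine also bears on methylation: S-adenosylhomocysteine, the product of methyl transfer, is split by Ahcy into homocysteine and adenosine, a reaction that runs forward only while adenosine is removed.

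The stretches of 150 bases before the annotated starts of Nt5e, Adk and Adora1 are printed because these 3 genes carry most of the account below. They are RefSeq sequences of the GRCr8 assembly, written 5′ to 3′ along the gene, with matches to the GC box (GGGCGG on either strand, overlapping matches included) in capitals.
Nt5e (chr8:98150775-98150924, plus strand): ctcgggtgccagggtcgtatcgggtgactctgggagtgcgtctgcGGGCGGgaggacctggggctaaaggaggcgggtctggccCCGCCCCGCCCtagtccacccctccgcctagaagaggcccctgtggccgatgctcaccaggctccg
Adk (chr15:3295746-3295895, minus strand): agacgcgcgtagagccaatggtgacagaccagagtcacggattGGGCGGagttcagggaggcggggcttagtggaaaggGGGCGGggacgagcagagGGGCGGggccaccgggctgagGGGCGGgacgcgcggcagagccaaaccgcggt
Adora1 (chr13:48246832-48246981, minus strand): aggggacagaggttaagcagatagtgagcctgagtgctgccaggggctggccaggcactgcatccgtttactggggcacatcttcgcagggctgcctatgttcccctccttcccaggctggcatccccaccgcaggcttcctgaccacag
In these windows Nt5e held 3 GC boxes, 2 of them sharing a base, Adk held 4 and Adora1 held 0. Over the 250 bases before the start, a GC box was present in 7 of the 9 genes of the list found in the promoter table (all but Adora2a) and in 32.4% of the 27457 promoters of the same length. The AP-1 letters TGANTCA, bound by the Fos and Jun proteins made after neuronal activity, matched on either strand in 1 of these 9, Adora3, and in 6.36% of all promoters. The cyclic AMP response element TGACGTCA matched in 0 of the 9 and in 1.7% of all. A match or its absence describes letters in this window and was not tied to any count.

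Of the 9 genes with a row, Nt5e (NM_021576) had the largest log2 difference between the groups and the smallest p. Its level in CPM, the read count relative to a library size scaled by the trimmed mean of M values, was 12.4, 13.3, 13.1, 11.2 and 12.9 in sham rats 1 to 5. In stimulated rats 6 to 10 it was 12.8, 18.4, 17.04, 19.02 and 20.9 CPM. Rats 7 to 10 thus lay above every sham rat, while rat 6 lay inside the sham range, so the groups overlapped in 1 rat. The group means, 12.6 ± 0.827 CPM for sham and 17.6 ± 3.04 CPM for stimulated (SD, n = 5 each), gave a log2 fold change of 0.49 (SE 0.134, 95% interval 0.20 to 0.78), or 1.41-fold. The unadjusted p was 0.00265 and the adjusted p 0.376 in edgeR's quasi-likelihood test over all 22447 tested features, so the difference did not pass the adjusted threshold. In tissue of mixed cells, more cells of a type and more RNA per cell cannot be told apart. An exact permutation test on log2 CPM gave p = 0.0317 (two-sided, unadjusted).

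Read against all features, this is 1 of 9 members with an unadjusted p under 0.05, where 9.86% of all tested features had one and 6.7% had one and were higher in stimulated rats. None of the 9 members had an adjusted p under 0.05, and neither had any of the tested features (0.0%). With other tests 32 (DESeq2), 90 (edgeR's exact test) and 119 (likelihood ratio test) features passed, and the members among them numbered 0. The study lists genes of this model with an adjusted p under 0.05 by edgeR. It counts fewer stimulated rats and does not name which edgeR test was used. With any stimulated rat left out, 0 features passed in the quasi-likelihood test. Of the 9 members 6 were higher and 3 lower in stimulated rats, with a median log2 fold change of 0.18 beside 0.01 over all tested features. In 0 of the 9 the groups did not overlap, beside 1.29% of all tested features. That count became 1 when stimulated rat 6 was left out, for Nt5e, and 1 when sham rat 2 was left out, for Adora1. These are the rats whose values made the groups overlap, so the change follows from their removal. The share of all tested features without overlap was not computed with a rat left out.

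**Figure D1:**
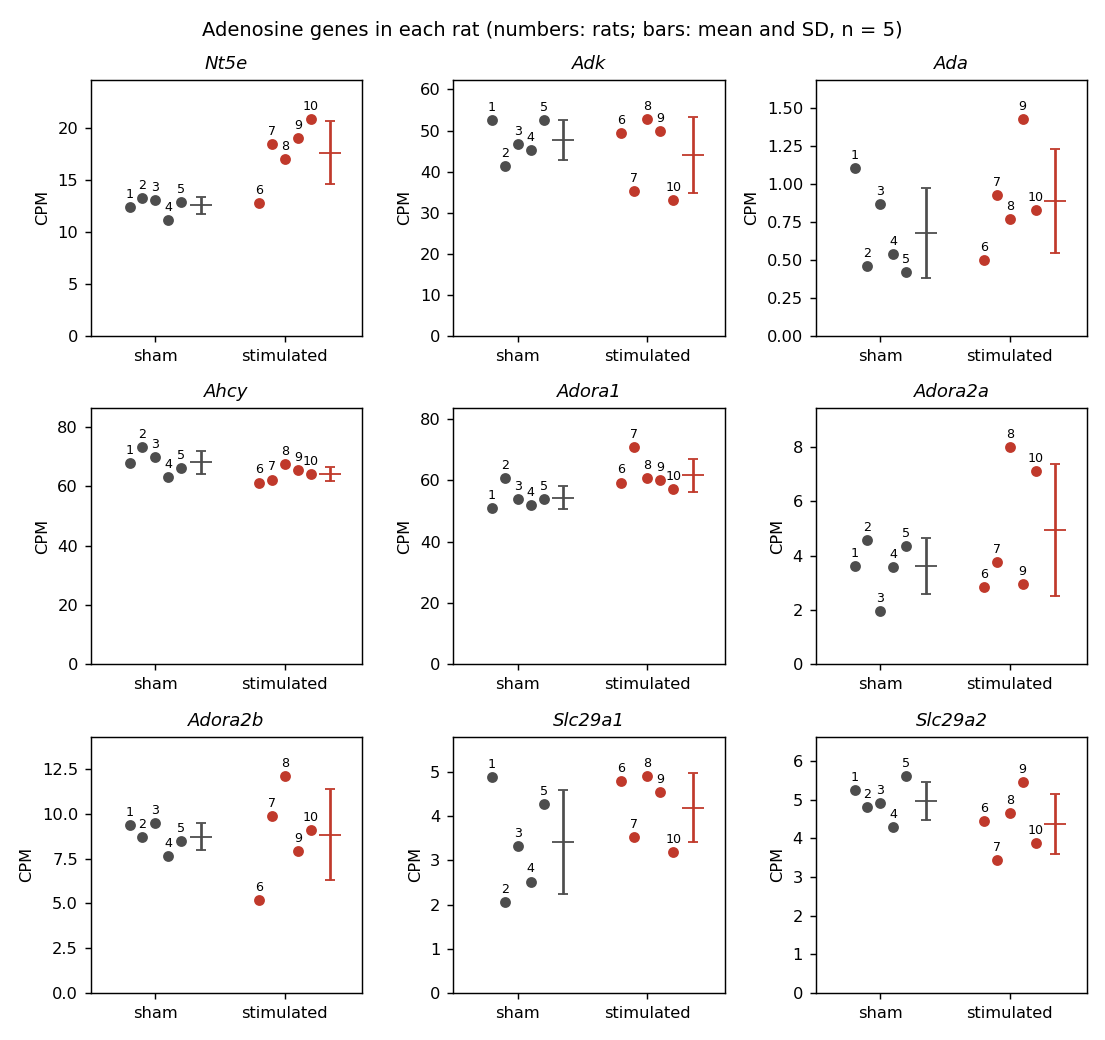
Level of the 9 adenosine genes in CPM (vertical axes, from 0), with a point per rat labelled by rat number, sham in grey and stimulated in red, and the mean with SD of each group (n = 5). For Nt5e, stimulated rats 7 to 10 lie between 17.04 and 20.9 CPM above all sham rats, and for Adk, stimulated rats 7 and 10 lie below all sham rats.

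Nt5e kept its side of the unadjusted threshold whichever of the 10 rats was omitted, with log2 fold changes from 0.42 to 0.57 and unadjusted p from 0.00026 to 0.00934. Its lowest adjusted p in any setting was 0.0953, without stimulated rat 6. The 10-gene list of immediate early genes, which neurons transcribe soon after firing, had a mean log2 CPM of 5.32, 5.71 and 5.57 in rats 7, 9 and 10, but 2.9 in rat 8 and 3.41 in rat 6, with sham rats from 2.90 to 3.4 and an exact permutation p of 0.0794 (0.258 adjusted over the 13 lists). Rats 7, 9 and 10 were thus high for both Nt5e and this list, rat 6 was near the sham rats for both, and rat 8 was high for Nt5e alone. Of this list, the study names Fos, Junb, Arc, Egr1, Egr2, Egr4 and Nr4a1 as upregulated in this model. The list was chosen with earlier results of these data known, so its p is given as a description. The part of recent activity in the difference of Nt5e was not tested. Unaligned reads made up 41.4, 42.9 and 45.1% in rats 8, 9 and 10, which had high Nt5e, against 32.0% in rat 7, which also had high Nt5e, 35.6% in rat 6 and 32.8 to 37.1% in sham rats, and the part of this library difference was not tested.

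Nt5e can also be made by fibroblasts and endothelial cells, so markers of these and of glial cells are given beside it. The 10 endothelial markers, none of them at 0 in all rats, had a mean log2 CPM of 3.99 to 4.09 in sham rats and 4.21, 4.03, 4.41, 4.17 and 4.93 in stimulated rats 6 to 10. That difference had an exact permutation p of 0.0317 (two-sided) and of 0.258 when adjusted over the 13 marker lists. Rat 7, the lowest of the stimulated rats for endothelial markers, had 18.4 CPM of Nt5e. The 7 fibroblast and meningeal markers other than Nt5e ranged from 1.81 to 2.62 in sham rats and were 2.31, 1.41, 3.23, 2.27 and 1.59 in rats 6 to 10, so they were below all sham rats in rats 7 and 10, where Nt5e was 18.4 and 20.9 CPM. The summed level of these 7 markers was 34.2 and 43.8 CPM in rats 7 and 10, inside the sham range of 29.05 to 51.7 CPM, and Lum, at 15.7 and 19.5 CPM, was higher in these rats than in the others. Slc22a6 was at 0 in rat 10. Astrocyte markers, 9 with a row, lay between 7.59 and 7.82 in sham rats and were 7.72, 7.65, 7.81, 7.997 and 7.90 in rats 6 to 10. The 9 microglial markers with a row lay between 4.46 and 4.90 in sham rats and were 4.54, 5.16, 4.64, 5.17 and 4.93 in rats 6 to 10. Rats 7, 9 and 10, with high Nt5e, thus lay above all sham rats. All 9 markers had a higher fitted level in stimulated rats, beside 11716 of all 22447 tested features. In rat 7, Aif1, Itgam, Csf1r, C1qa and C1qb lay above all sham rats and Cx3cr1 and Cd68 inside their range. Tmem119 and Trem2, at 13.97 and 12.2 CPM, lay below all sham rats there. The difference of the microglial list had an exact permutation p of 0.159 (two-sided). The part of any of these cell types in the difference of Nt5e was not tested.

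**Figure D2:**
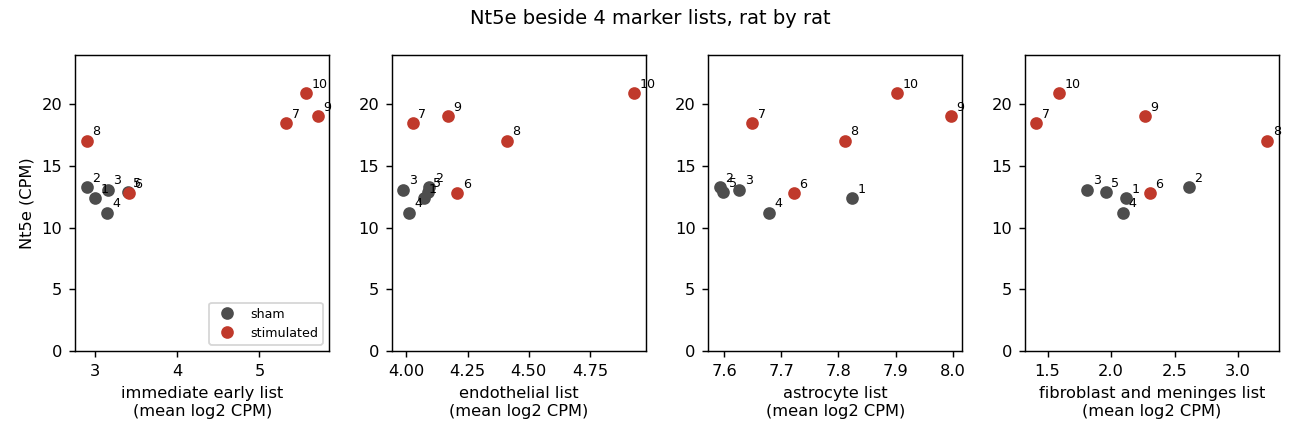
Nt5e in CPM (vertical axis, from 0) against the mean log2 CPM of 4 marker lists (horizontal axes), with a point per rat labelled by rat number, sham in grey and stimulated in red. In the immediate early panel, rats 7, 9 and 10 lie high on both axes, rat 6 lies near the sham rats, and rat 8 joins 17.04 CPM of Nt5e to a list level of 2.9.

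Adk (NM_012895), whose product removes adenosine by phosphorylation, did not differ between the groups beyond the spread between rats. Its level was 52.5, 41.4, 46.6, 45.3 and 52.5 CPM in sham rats 1 to 5 and 49.5, 35.2, 52.9, 49.8 and 33.1 CPM in stimulated rats 6 to 10. Rats 7 and 10 lay below every sham rat, rats 6 and 9 lay inside the sham range, and rat 8 lay just above it. The means were 47.7 ± 4.8 and 44.1 ± 9.19 CPM (SD, n = 5 each), and the fitted log2 difference was -0.11 (SE 0.138, 95% interval -0.41 to 0.18, adjusted p = 0.82 by edgeR). In fold terms that interval ran from 0.752 to 1.14, so a rise of the mean by more than 1.14-fold lay outside it and a modest fall did not. The log2 fold change ranged from -0.20, without rat 8, to -0.03, without rat 10, over the fits that left out a rat.

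The rats with the lowest Adk had the highest Gfap, the intermediate filament that astrocytes raise when they become reactive. Gfap was counted at 6467 and 5394 CPM in rats 7 and 10 and at 1326 to 2078 CPM in the other 8 rats. The summed level of the 9 astrocyte markers with a row was 8865 and 7746 CPM in these rats, against 3569 to 4049 CPM in sham rats and 3636 to 4850 CPM in the other stimulated rats, and none of the 9 was at 0. Most of that sum was Gfap itself. The other markers of the list were mixed in rat 7. Aldh1l1 was at 16.4 and Gjb6 at 15.1 CPM, against 40.5 to 50.9 and 39.9 to 55.8 CPM in sham rats. Gja1 and Fgfr3 also lay below all sham rats, at 271.0 and 54.5 CPM. Aqp4, Slc1a2 and Slc1a3 lay above all sham rats, at 162.2, 193.0 and 748.4 CPM, and S100b lay inside the sham range. The mean log2 CPM of the list, in which each marker counts alike, was 7.65 in rat 7 and 7.90 in rat 10, against 7.59 to 7.82 in sham rats. Neuronal markers in rat 10 were the lowest of the series, at 8.70 against 8.86 to 8.98 in sham rats, and were 8.86 in rat 7 and 8.85 in rat 9. How far cell composition entered the Adk values was not tested. The row stands for a single RefSeq transcript, and which forms of the enzyme its reads cover is not given in the sources used here.

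By Pearson correlation of log2 CPM over the 10 rats, the features most like Adk among 8248 with a symbol and a mean of at least 10 CPM were Dlx1 (r = 0.97, Spearman rho = 0.95), Lypd1 (r = 0.95, rho = 0.85) and Oxct1 (r = 0.94, rho = 0.72). Those most like Adora1 were Mcl1 (r = 0.93, rho = 0.94), Zw10 (r = 0.92, rho = 0.85) and Mllt3 (r = 0.91, rho = 0.84). These coefficients are the highest of many, over rats that share their libraries between genes, and are given as a description.

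Ada (NM_130399), whose product deaminates adenosine to inosine, was counted with 6 to 28 reads per rat, which limits any statement about it. Sham rats 1 to 5 had 1.1, 0.458, 0.871, 0.537 and 0.419 CPM and stimulated rats 6 to 10 had 0.498, 0.928, 0.766, 1.43 and 0.825 CPM. The groups overlapped almost fully, with rat 9 alone above the sham range, and the log2 fold change of 0.39 had a 95% interval from -0.44 to 1.23 (SE 0.387, adjusted p = 0.767 by edgeR). In fold terms the interval ran from 0.738 to 2.34, so neither a modest fall nor a large rise could be detected or set aside at this depth.

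Ahcy (NM_017201), the enzyme that links adenosine to methylation, varied least of the 9 genes relative to its mean. It was counted at 67.8, 73.1, 69.8, 63.2 and 66.1 CPM in sham rats 1 to 5 and at 61.2, 62.3, 67.3, 65.6 and 64.1 CPM in stimulated rats 6 to 10. Rats 6 and 7 lay just below the sham range and the other 3 inside it. The means of 67.98 ± 3.76 and 64.1 ± 2.46 CPM (SD, n = 5 each) differed in the fit by -0.08 in log2 (SE 0.077, adjusted p = 0.744 by edgeR), and the 95% interval of the fold ran from 0.841 to 1.06.

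Among the receptors, Adora1 (NM_017155) had a mean 1.14-fold as high in stimulated rats, a difference that did not pass the threshold. The A1 receptor is the abundant inhibitory adenosine receptor of hippocampal neurons. It was counted at 50.9, 60.7, 54.1, 52.03 and 54.04 CPM in sham rats 1 to 5 and at 59.3, 70.8, 60.7, 60.1 and 57.3 CPM in stimulated rats 6 to 10. Each stimulated rat was above 4 of the 5 sham rats, and sham rat 2, at 60.7 CPM, was the one that made the groups overlap. The means were 54.3 ± 3.79 and 61.7 ± 5.29 CPM (SD, n = 5 each), and the fitted log2 difference was 0.18 (SE 0.0886, 95% interval -0.01 to 0.37, unadjusted p = 0.0583, adjusted p = 0.52 by edgeR). An exact permutation test on log2 CPM gave p = 0.0317 (two-sided, unadjusted). For the members other than Nt5e and Adora1 the p of this test ran from 0.103 to 0.897. The share of all tested features with such a p was not computed. The unadjusted p of Adora1 by edgeR was 0.0336 without sham rat 2 and 0.178 without stimulated rat 7, whose 70.8 CPM was the highest value.

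Adora2a (NM_053294), the stimulatory receptor best known from striatal neurons, was high in 2 stimulated rats. It was counted at 3.61, 4.58, 1.96, 3.6 and 4.36 CPM in sham rats 1 to 5 and at 2.85, 3.76, 7.98, 2.96 and 7.12 CPM in stimulated rats 6 to 10. Rats 8 and 10 lay above every sham rat, and rats 6, 7 and 9 lay inside the sham range. The log2 fold change of 0.44 (SE 0.319, 95% interval -0.24 to 1.13, adjusted p = 0.667 by edgeR) did not exceed this spread, and it was 0.19 to 0.58 in the fits that left out a rat.

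Since Adora2a is also found in striatal cells, vessels and microglia, their markers are given for rats 8 and 10. The 7 striatal markers other than Adora2a had a mean log2 CPM of 2.28 and 2.74 in these rats, below the sham range of 2.82 to 3.07, and 1 of the 7, Gpr6, was at 0 in rats 7 and 10. The summed level of the same 7 markers was 177.3 CPM in rat 8 and 260.0 CPM in rat 10, against 193.4 to 210.1 CPM in sham rats. Most of the sum in rat 10 was Penk, at 138.2 CPM against 50.8 to 90.5 CPM in sham rats. Drd2, which striatal neurons express together with Adora2a, was counted at 0.128 and 2.68 CPM in rats 8 and 10 and at 1.05 to 2.06 CPM in sham rats. The lowest striatal level of the series was in rat 7, at 1.65 or 92.4 CPM summed. Rats 8 and 10 had the highest endothelial levels of the series, 4.41 and 4.93 in mean log2 CPM, or 274.3 and 403.8 CPM summed over the 10 markers against 207.1 to 225.7 CPM in sham rats. Their microglial levels were 4.64 and 4.93, against 4.46 to 4.90 in sham rats. The part of striatal cells, vessels or microglia in the Adora2a values was not tested.

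Adora2b (NM_017161), the low-affinity stimulatory receptor, had nearly the same mean in both groups and a wider spread in stimulated rats. Sham rats 1 to 5 had 9.36, 8.7, 9.47, 7.65 and 8.5 CPM, and stimulated rats 6 to 10 had 5.2, 9.89, 12.1, 7.9 and 9.08 CPM. Rat 6 lay below and rats 7 and 8 above all sham rats. The means were 8.74 ± 0.737 and 8.84 ± 2.55 CPM (SD, n = 5 each), and the log2 fold change of 0.01 (SE 0.19, 95% interval -0.39 to 0.42, adjusted p = 0.989 by edgeR) had no stable sign. The SD was 3.47 times as large in stimulated as in sham rats. For Nt5e this ratio was 3.67, for Adora2a 2.37 and for Adk 1.92, and it was above 1 for 7 of the 9 members, as it was for 69.3% of all tested features, whose median ratio was 1.37.

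The equilibrative nucleoside transporters carry adenosine across the membrane along its gradient. Slc29a1 (NM_031684) was counted at 4.89, 2.06, 3.32, 2.52 and 4.27 CPM in sham rats 1 to 5 and at 4.79, 3.53, 4.92, 4.54 and 3.2 CPM in stimulated rats 6 to 10. The sham rats spanned nearly the whole range of the stimulated rats, and the log2 fold change was 0.29 (SE 0.239, 95% interval -0.22 to 0.80, adjusted p = 0.715 by edgeR). Slc29a2 (NM_031738) was counted at 5.23, 4.81, 4.9, 4.3 and 5.61 CPM in sham rats 1 to 5 and at 4.43, 3.43, 4.66, 5.46 and 3.87 CPM in stimulated rats 6 to 10. Rats 7 and 10, the rats with the lowest Adk, were also the lowest for Slc29a2, and the log2 fold change was -0.19 (SE 0.164, 95% interval -0.54 to 0.17, adjusted p = 0.73 by edgeR).

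**Figure D3:**
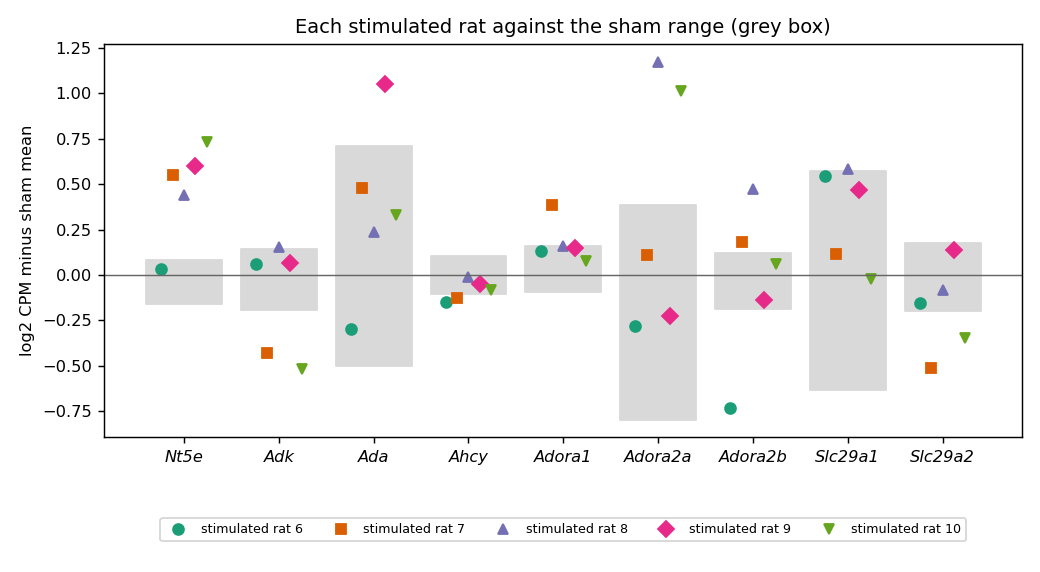
Difference of each stimulated rat from the sham mean in log2 CPM (vertical axis) for the 9 genes, with a symbol per rat and the range of the 5 sham rats as a grey box. Rats 7 and 10 lie at -0.43 and -0.52 for Adk, and rats 8 and 10 lie at 1.17 and 1.01 for Adora2a, each outside the box.

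No stimulated rat left the sham range in all 9 genes. Rat 10 had the highest Nt5e and the lowest Adk of the series, at 0.73 and -0.52 from the sham mean in log2 CPM, and rat 7 differed in the same directions, at 0.55 and -0.43. Rat 9, whose immediate early level was the highest of the series, had Nt5e at 0.60 and Adk at 0.07. Rat 8 had Nt5e at 0.44 with Adk at 0.16, the highest Adk value of the series. Rat 6 left the sham range for Adora2b, at -0.73, and for Ahcy, at -0.15, and lay inside it for the other 7 genes.

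Other genes of purine handling and adenosine signalling were read in the same fit, from a list of 78 genes. Of these, 75 had a row (Nt5m, Pnp and Ada2 had none matched) and 67 were tested, 36 higher and 31 lower in stimulated rats, with a median log2 fold change of 0.01. An unadjusted p under 0.05 was found for 4 of the 67, 2 higher and 2 lower, beside 9.86% of all tested features, and an adjusted p under 0.05 for 0. This count was 7 without stimulated rat 6, 9 without stimulated rat 8 and 10 without stimulated rat 10, where 14%, 13.5% and 9.2% of all tested features had such a p.

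Panx1, which forms channels that release ATP, was counted at 6.98 to 10.3 CPM in sham rats and at 9.82, 25.9, 7.92, 23.8 and 14.7 CPM in stimulated rats 6 to 10. Rats 7, 9 and 10 lay above all sham rats and rats 6 and 8 inside the sham range, and the same 3 rats had the high immediate early levels given above. The log2 fold change was 0.92 (SE 0.287, adjusted p = 0.396 by edgeR). The study, which counts fewer stimulated rats and does not name its edgeR test, lists this row as upregulated, with an adjusted p under 0.05. Panx1 had 3 matched rows, of which the one with the highest mean count is given. Panx2, a relative of Panx1, averaged 180.2 ± 9.21 CPM under sham and 140.7 ± 45.5 CPM under stimulation (log2 fold change -0.36, SE 0.183, adjusted p = 0.542). Gnai1, a subunit of the inhibitory G protein through which the A1 receptor acts, averaged 107.9 ± 6.52 CPM under sham and 88.9 ± 14.5 CPM under stimulation (SD, n = 5 each). It lay below all sham rats in stimulated rats 7 to 10, at 89.5, 83, 86.8 and 72.9 CPM, and inside the sham range in rat 6, at 112.1 CPM, and its fitted log2 difference was -0.28 (SE 0.107, adjusted p = 0.427 by edgeR). These 4 rats are also those with high Nt5e. Gnai2 and Gnas, the other subunits counted at the highest levels of this sublist, differed by 0.01 (SE 0.0814) and -0.11 (SE 0.0734) in log2.

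P2ry1, a receptor for ADP, differed between the groups in log2 by -0.78 (SE 0.365, adjusted p = 0.506) at 12 to 70 counts per rat. Ahcyl1 and Ahcyl2, relatives of Ahcy, had log2 fold changes of 0.18 (SE 0.0905, adjusted p = 0.547) and 0.21 (SE 0.126, adjusted p = 0.594). Of the 7 tested enzymes that break down ATP and AMP outside the cell, 0 had an unadjusted p under 0.05, beside 9.86% of all tested features. The log2 fold changes of these 7 ran from -0.27 to 1.17. Entpd2 and Enpp2, the 2 with the most counts, differed between the groups by 0.11 (SE 0.149) and -0.21 (SE 0.154) in log2. Among the 13 tested genes of AMP and adenosine turnover inside the cell 0 had an unadjusted p under 0.05, with log2 fold changes of -0.06 (SE 0.0919) for Ak5 and 0.01 (SE 0.12) for Ampd2. The 4 further nucleoside transporters tested likewise held 0, with 0.08 (SE 0.189) for Slc29a3 and 0.40 (SE 0.335) for Slc29a4. In lists this short, a count of 0 says little beside a share of 9.86% over all tested features. P2rx4, an ATP-gated channel and after Panx2 the gene with the most counts of its sublist, differed by -0.05 (SE 0.127) in log2.

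**Figure D4:**
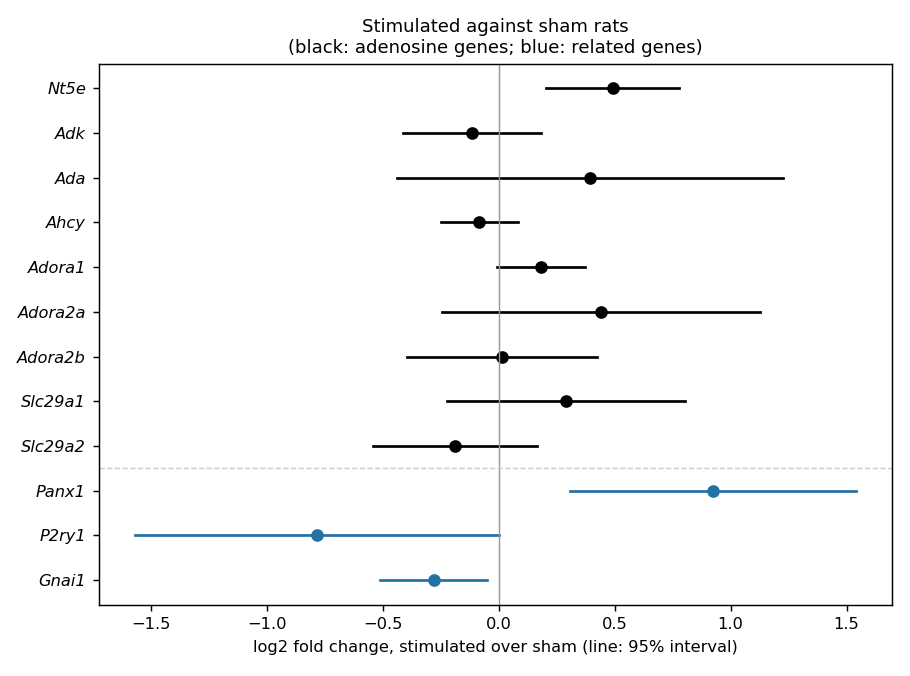
Log2 fold change of stimulated over sham rats (horizontal axis) with its 95% interval, for the 9 adenosine genes in black and for the related genes Panx1, P2ry1 and Gnai1 in blue. Of the 9 adenosine genes, the interval of Nt5e, 0.20 to 0.78, is the one that does not reach 0.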

How the data were processed

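The genes and lists were chosen with earlier results of these data known. Per the labels, libraries of poly(A) RNA were read in single reads of 36 cycles. The deposited values are raw counts of reads per transcript and rat, which the authors made by aligning reads to the rn4 build with BWA and counting with their own script. The study names an Ensembl annotation and the rows carry RefSeq identifiers. Strand use and the treatment of shared reads were not given in the sources used here, so overlapping genes and close copies are uncertain. The study counts fewer stimulated rats than the labels; all 10 labelled rats were used.

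The row of unaligned reads was removed. Symbols came from the RefSeq gene table of GRCr8 by transcript identifier, with the row of highest mean count per symbol. Transcript lengths were not used here, so levels were not compared between genes. Following the study, features with a summed count below the 30th percentile (46 counts) were left out, and 22447 of 32041 were fitted in edgeR 4.0.16 by quasi-likelihood (R 4.3.3, TMM factors, no covariate, Benjamini-Hochberg adjustment over all tested features). The fit was tested on simulated data. Intervals are 95% intervals from the fit. CPM used TMM-scaled library sizes, and log2 CPM a prior count of 2. Exact permutation tests used all 252 assignments of the rats (smallest two-sided p 0.00794). One library was made per rat, so p-values measure the spread between rats. Intervals on these counts do not cover bias of library preparation. Named genes were every member, each related gene with an unadjusted p under 0.05 (1 is not reported here), the 2 of highest mean CPM in each sublist, and the 3 features most like Adk and Adora1. Alternatives were other scaling factors, filters and tests (DESeq2 1.42.0, limma 3.58.1 with voom, edgeR's exact and likelihood ratio tests), removal of ribosomal records, sums of rows per symbol, other prior counts and the omission of each rat. Figures and summaries used numpy 2.4.6, pandas 2.3.3, scipy 1.17.1 and matplotlib 3.10.9.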

Additional observations from a re-analysis of the deposited data

Results flagged for a closer look

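Within 5 rats of a group, a rat was taken to stand apart when its distance to the next rat exceeded 0.71 of the whole range, the limit Dixon's test sets. Of 58 groups of values 4 exceeded it, where chance gives about 2.9. Stimulated rat 7 stood apart for Adora1, at 70.8 CPM, with a gap of 0.749 of the range. Sham rat 4 was lowest for the oligodendrocyte list, at 7.61 in mean log2 CPM (0.791 of the range), and stimulated rat 7 was lowest for it among stimulated rats, at 7.35 (0.712). Sham rat 1 was lowest for the striatal list, at 2.82 (0.818).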

How the results depend on the processing

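The number of members with an adjusted p under 0.05 was 0 in each of the 23 other settings. Nt5e had an unadjusted p under 0.05 in each of them. With library size alone and with limma-voom 2 members had one, Nt5e and Adora1, beside 9.81% and 9.06% of all tested features. The count ranged from 1 to 2 over the fits that left out a rat, where 7.37 to 14% of all tested features had one. Adora1 was added without sham rat 2 and without stimulated rat 10. Features with an adjusted p under 0.05 numbered 32 with DESeq2, 119 with the likelihood ratio test, 90 with edgeR's exact test, and 0 in the other settings. Related genes with an unadjusted p under 0.05 ranged from 3 to 10 over the fits that left out a rat, beside the same 7.37 to 14% of all tested features. Members whose groups did not overlap ranged from 0 to 1 with a rat left out, and the share of all tested features was not computed there. The log2 fold change of Adora2b was -0.0117 with upper quartile factors and -0.0453 with limma-voom, and ran from -0.14 to 0.14 with a rat left out. No other member changed sign in any setting. The cause of these differences was not tested. Depth limits Ada most, with 6 to 28 reads per rat.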
